A study of Rattus norvegicus with 9 samples.

Results

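Sncb and Sncg code for beta- and gamma-synuclein, and their RNA was followed in pools of embryonic rat ventral spinal cord. The genes were found as every probe set of the array whose annotation gives a single symbol equal to either name, which yielded 3 probe sets of 2 genes among 31042 probe sets and 14217 named genes. One probe set, 1398245_at, reads Sncg, and 2 probe sets, 1371568_at and 1369924_at, read Sncb. Of the 3, 2 passed the filter on low intensity (a mean above about 17.2), and the Sncb probe set 1369924_at did not. The genes were chosen with results of these arrays known, the Sncg level in mutant and wild-type pools among them, so that contrast is described below and not tested for either gene.

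RNA was taken at embryonic day 14, and each of the 9 arrays was hybridised with total RNA pooled from 5 embryos. The 4 mutant pools came from rats with human SOD1 (hSOD1) carrying G93R, marked Roth in the titles. The 4 wild-type pools came from rats with unmutated hSOD1, marked Chan, and the single negative control pool is marked SDneg. SOD1 codes for a superoxide dismutase, and its mutations cause inherited amyotrophic lateral sclerosis, in which motor neurons die. Which promoter drives each transgene is not stated in these sources. Mutation, rat line and site of insertion go together and cannot be told apart. The negative control is described both as negative and as positive embryos; it was used as its title has it. In bulk RNA of a pool, a change in the number of cells of a type and a change of RNA per cell cannot be told apart.

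Synucleins are small, soluble proteins of neurons that bind lipid membranes through repeats in their first part and have an acidic, flexible tail. Beta-synuclein gathers at presynaptic terminals and is best known from the brain. Gamma-synuclein is best known from peripheral and long-projecting neurons, including sensory ganglion cells, motor neurons and retinal ganglion cells, where it lies in the cell body and axon.

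Levels are given as intensities on the linear scale of the deposited table, with array medians between 31.0 and 33.9, and log2 differences were taken after adding a pseudocount of 8.25. Pairs of arrays correlated at 0.976 to 0.986 over probe sets. The tissue label was checked against markers. Isl1, Chat and Nkx6-1, genes of motor neurons and ventral progenitors, were above the filter, while Shh, Foxa2 and Olig2, of floor plate and ventral progenitors, were below it in the mean (Shh at 1.26 ± 0.197 in mutant and 1.22 ± 0.885 in wild-type pools, SD, n = 4 each). Of 5 floor plate and notochord genes with a probe set, 2 were above the filter, Spon1 and Ntn1. Spon1 was at 319 ± 15.2 in mutant and 339 ± 50.3 in wild-type pools. Of 16 neural progenitor genes with a probe set, 11 were above the filter, among them Nkx2-2 at 64.3 ± 20.7 and 74.4 ± 10.4. Of 5 dorsal cord genes with a probe set, 3 were above the filter, with Phox2a at 56.2 ± 18.4 in mutant and 37.2 ± 7.12 in wild-type pools. Of 9 skeletal muscle genes with a probe set, 4 were above it, with Acta1 at 96.9 ± 15.4 and 85.2 ± 18.4. Of 12 blood and macrophage genes with a probe set, 0 were above the filter, with Hbb at 3.04 ± 0.991 in mutant and 2.33 ± 1.39 in wild-type pools. The filter is on the mean and can hide a single pool. The globin gene Hbe1 was 24.8 ± 46.4 in mutant pools, with a maximum of 94.5. The sum of the blood and macrophage list was 185 in mutant replicate 3 and 60.8 to 92.7 in the other arrays. The rat Sod1 probe set read 1963 to 2540 in mutant pools, 2099 to 2442 in wild-type pools and 1699 in the control; whether it also reads the human transcript is not known here. Wild-type replicate 2 stood apart in RNA quality, with a beta-actin 3'/5' ratio of 19.2 against 8.19 to 9.20 in the other wild-type pools, 6.98 to 7.98 in mutant pools and 6.66 in the negative control. Its median correlation with the remaining arrays, 0.978, was the lowest. The actin ratio was higher in every wild-type pool than in every mutant pool, so this measure of RNA quality and the group cannot be told apart.

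The reference sequences before the start of both genes are shown because they are the stretches from which each RNA is started, and they differ in base composition. Each line gives the 250 bases before the start in RefSeq's table for the assembly GRCr8, 5′ to 3′ on the gene's own strand, with matches to the searched motifs in capitals.
Sncb: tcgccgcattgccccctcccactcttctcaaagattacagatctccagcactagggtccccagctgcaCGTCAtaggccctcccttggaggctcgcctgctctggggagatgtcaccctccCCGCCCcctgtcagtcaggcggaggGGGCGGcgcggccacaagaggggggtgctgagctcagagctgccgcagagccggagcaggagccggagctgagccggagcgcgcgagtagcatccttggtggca
Sncg: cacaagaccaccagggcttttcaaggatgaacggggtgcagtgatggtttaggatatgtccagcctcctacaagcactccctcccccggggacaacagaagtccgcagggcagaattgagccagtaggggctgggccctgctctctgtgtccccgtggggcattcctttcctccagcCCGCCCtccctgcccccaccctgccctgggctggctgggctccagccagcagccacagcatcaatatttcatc
The Sncb stretch lies at chr17:9851684-9851933 on the plus strand, and the Sncg stretch at chr16:9711337-9711586 on the minus strand. In both, the gene's extent in RefSeq, over all its transcripts, reaches further upstream than the start used, so part of a longer transcript may be shown. Sncb held 16 CG pairs at 67.2% G and C, and Sncg held 5 CG pairs at 61.6%, where the median of 33469 such stretches was 5 CG pairs and 51.2%. The GC box GGGCGG, searched on both strands as were all motifs, matched at 2 places in Sncb and 1 in Sncg, and 30.5% of the stretches held it. The core TGACG of the cAMP response element matched at 1 place in Sncb and 0 in Sncg (18.2% of stretches). The TATA box TATAAA (12.9%) and the CCAAT box CCAAT (34.0%) matched at 0 places in both. No match overlapped another. A match is only a description of these letters.

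Sncg was higher on average in mutant than in wild-type pools, by 1.28-fold, with most of the spread among the mutant pools. Its intensity was 4433, 3204, 3426 and 2843 in mutant replicates 1 to 4. It was 2678, 2927, 2656 and 2614 in wild-type replicates 1 to 4 and 2968 in the negative control. Mutant replicate 1 was the highest of all arrays; 3 of 4 mutant pools lay above every wild-type pool, and mutant replicate 4 lay below wild-type replicate 2, so the groups overlapped. Mutant pools averaged 3476 ± 681 and wild-type pools 2719 ± 141 (SD, n = 4 each), which differ by 0.34 on the log2 scale. The SD of log2 values was 0.27 among mutant and 0.07 among wild-type pools, a coefficient of variation of 19.6% and 5.20% of the intensity. The negative control lay between the group means, with mutant pools 0.21 above it and wild-type pools 0.13 below it on the log2 scale (log2 differences of 0.21 and −0.13). The negative control was above all 4 wild-type pools and inside the range of the mutant pools. The step from wild-type pools to the control was under the residual SD between pools, 0.20 on the log2 scale, and the step from the control to mutant pools was about equal to it. With 1 pool the spread of the control itself is not known.

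The size of the Sncg difference depended on mutant replicate 1. Without that pool the log2 difference was 0.21, and without both transgenic pools whose titles lack the tag le2, mutant and wild-type replicate 1, it was 0.21 as well. What the tag means is not stated in these sources. With the log2 beta-actin 3'/5' ratio, which did not overlap between the groups, as a covariate it was 0.39. Across all 16 alternatives it stayed above 0, between 0.21 and 0.43. The le2 covariate and the replicate block, balanced between the groups, could not move it. Among the 18625 probe sets above the filter, 5.59% had a larger absolute difference between mutant and wild-type pools, and 44.6% had a larger residual SD between pools. The median absolute log2 difference was 0.10.

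**Figure D1:**
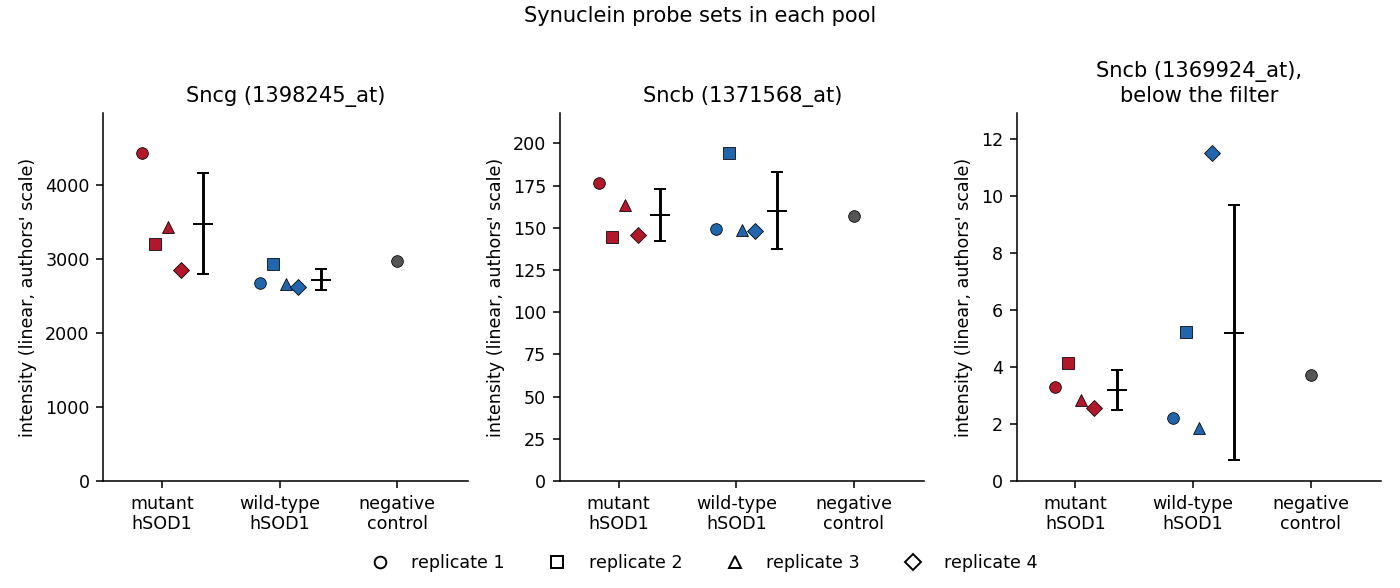
Intensity on the authors' linear scale (vertical axes) of the 3 synuclein probe sets in each of the 9 pools, by group, with a marker shape for the replicate number and the mean and SD of the 4 pools beside the points. Sncg reached 4433 in mutant replicate 1 against 2614 to 2927 in wild-type pools, Sncb 1371568_at was high in wild-type replicate 2 at 195, and Sncb 1369924_at stayed at or under 11.5.

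Sncb was at nearly the same level in the 3 groups. On 1371568_at its intensity was 177, 145, 163 and 146 in mutant replicates 1 to 4. It was 149, 195, 149 and 148 in wild-type replicates 1 to 4 and 157 in the negative control. The wild-type pools other than replicate 2 lay close together, from 148 to 149, and the mutant pools spread around them, so the groups overlapped. Mutant pools averaged 158 ± 15.3 and wild-type pools 160 ± 22.9 (SD, n = 4 each), a log2 difference of −0.02 against a residual SD between pools of 0.16. Wild-type replicate 2, with the actin ratio of 19.2, held the highest Sncb value, and without it the difference was 0.07. Of the probe sets above the filter, 89.6% had a larger absolute difference.

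Unlike 1371568_at, the other Sncb probe set, 1369924_at, was dim in every pool. It read 3.28, 4.15, 2.83 and 2.55 in mutant pools, 2.22, 5.22, 1.86 and 11.5 in wild-type pools, with the negative control at 3.70. Only wild-type replicate 4 was above the pseudocount. The annotation ties 1369924_at to the RefSeq transcript and 1371568_at to an expressed sequence tag of the same gene. Probe positions were not used here. The Sncb comparison above and every value of Sncg relative to Sncb rest on 1371568_at alone. Why these probe sets differ in level was not tested.

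Since both genes are read on the same array, the log2 value of Sncg minus that of Sncb would not change with the scale of an array but for the pseudocount. This difference was 4.59, 4.39, 4.32 and 4.21 in mutant replicates 1 to 4. It was 4.09, 3.86, 4.08 and 4.07 in wild-type replicates 1 to 4 and 4.17 in the negative control. Here the groups did not overlap: the lowest mutant pool was at 4.21 and the highest wild-type pool at 4.09, with the negative control between them. In Sncg alone they overlapped through wild-type replicate 2, at 2927 against 2843 in mutant replicate 4. That pool also held the highest Sncb value, 195, so the separation in this measure depends on that Sncb value. Mutant pools averaged 4.38 ± 0.16 and wild-type pools 4.02 ± 0.11, and the means were 0.35 apart. When every other probe set above the filter was set against Sncb in the same way, all 4 mutant pools lay above all 4 wild-type pools at 0.650% of them; since Sncg was chosen on this contrast, nothing is read from that share. For single probe sets taken alone, all 4 mutant pools lay above all 4 wild-type pools at 1.71%. Without wild-type replicate 2, the lowest in this measure, the difference between the groups was 0.30, and without mutant replicate 1 it was 0.28. This measure comes from the contrast the genes were chosen on and carries no test.

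**Figure D2:**
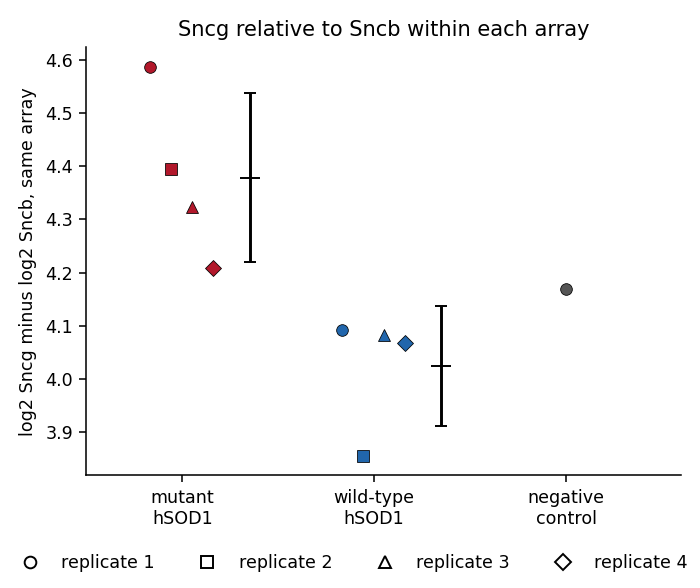
The log2 intensity of Sncg minus that of Sncb on the same array (vertical axis, which does not start at 0) for each pool by group, with the mean and SD of the 4 pools beside the points. The 4 mutant pools sit between 4.21 and 4.59 and the 4 wild-type pools between 3.86 and 4.09, with the negative control at 4.17. The lowest wild-type pool, replicate 2, overlapped the mutant group in Sncg alone and held the highest Sncb value, 195.

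**Figure D3:**
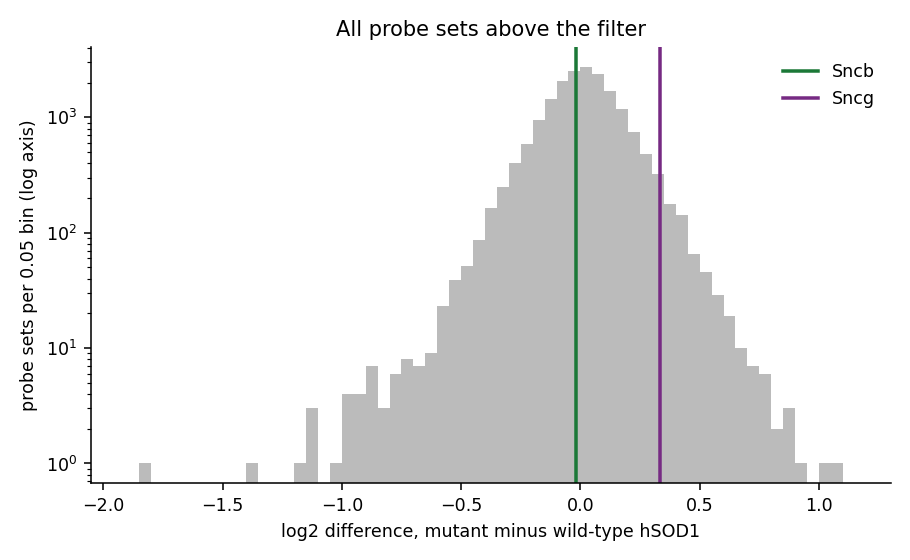
Number of probe sets above the filter (vertical log axis) in bins of mutant minus wild-type log2 difference (horizontal axis), with Sncb and Sncg marked by lines. Sncb, at −0.02, lies in the centre of all 18625 probe sets, and Sncg, at 0.34, on the upper flank, where 5.59% have a larger absolute difference.

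Setting the transgenic pools against the negative control asks what goes with an hSOD1 transgene of either kind. The transgenic values are those the genes were chosen on, so for the synucleins this is a description too. The 8 transgenic pools averaged 3098 ± 609 for Sncg and the control read 2968, with 3 of 8 pools above it and a log2 difference of 0.04. With the le2 tag as a covariate, which the control also lacks, that difference was 0.21, and without mutant replicate 1 it was −0.02. Sncb was 159 ± 18.1 against 157, again with 3 of 8 pools above the control and a log2 difference of 0.01, or 0.045 with the le2 tag as a covariate. All of these but the 0.21 for Sncg were under the residual SD between pools, 0.20 for Sncg and 0.16 for Sncb. Limma called 0 of 18625 probe sets in this comparison (0%), with 581 at an unadjusted p under 0.05 (3.12%). That fit takes the spread of the single control from the transgenic pools.

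Sncg is a gene of motor and sensory neurons, so its values were set beside lists of marker genes. Within the mutant group, the order of the pools for Sncg, replicate 1 highest, then 3, 2 and 4, was also the order of 3 of the 14 list sums, those of motor neurons, of sensory ganglia, and of meninges and fibroblasts. The motor neuron sum, over 21 genes with a probe set of which 19 were above the filter, was 21114, 16163, 18402 and 14254 in mutant replicates 1 to 4. Wild-type pools lay between 15709 and 17712, and the negative control was at 15909. The sum of the sensory ganglion list (22 genes, 14 above the filter) followed the same order in mutant pools, at 6430, 5414, 5972 and 5118, with wild-type pools from 5025 to 5804 and the negative control at 4898. The meninges and fibroblast sum (13 genes, 3 above the filter) was 2544, 1459, 2122 and 1105 in mutant replicates 1 to 4, with the wild-type group from 905 to 1439 and the control at 1256. All sums add linear intensities, so the brightest genes weigh most. In the motor neuron list these were Nefm, Nefl, Prph and Aldh1a2, each of which another list also holds. Nefm alone was at 6413, 5305, 5656 and 4317 in mutant replicates 1 to 4.

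Each of the 3 sums lost the order of Sncg once some genes shared with other lists were left out. Without Isl1, Prph and Ret, the sensory ganglion sum was 2065, 2302, 2178 and 2031 in mutant replicates 1 to 4 and no longer followed Sncg. Without Aldh1a2, the meninges and fibroblast sum was 119, 112, 110 and 111. The motor neuron sum kept the order without the 3 sensory genes, at 16749, 13051, 14608 and 11167. Over its 15 genes that no other list holds it was 4956, 3738, 4386 and 3782, with replicates 1 and 3 still highest but replicate 2 lowest. These sums were added after seeing the data. In wild-type pools Sncg was highest in replicate 2, where the motor neuron sum (15709) and the meninges and fibroblast sum (905) were lowest of the wild-type pools and the sensory ganglion sum (5804) and the pan-neuronal sum (64526) highest. The part of these cell types in the Sncg values was not tested.

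Gene by gene, 9 of the 19 motor neuron genes above the filter had mutant replicate 1 highest and replicate 4 lowest of the mutant pools, a share of 47.4%, as Sncg did. Over all probe sets above the filter the share was 9.48%. The 9 included Prph, the intermediate filament peripherin, at 2985, 2244, 2715 and 2067, and Slc5a7, the choline transporter of cholinergic neurons, at 469, 307, 424 and 288 in mutant replicates 1 to 4. They also included Aldh1a2, which makes retinoic acid in limb-level motor neurons and in meninges, at 2426, 1348, 2012 and 994. Chat and Slc18a3, cholinergic genes like Slc5a7, and Isl1 were not among the 9. In the same pools Chat read 175, 115, 180 and 149, Slc18a3 525, 365, 304 and 386, and Isl1 605, 354, 452 and 461. Of 26 pan-neuronal genes 11 had that pattern (42.3%), among them the growth cone gene Gap43 and the neurofilament genes Nefl and Nefm, which the motor neuron list also holds. Of the 14 sensory ganglion genes 3 did (21.4%), of the 24 presynaptic genes 3 (12.5%), of the 24 genes for synuclein turnover and partners 3 (12.5%), and of 11 neural progenitor genes 1 (9.09%), Vim. This pattern and the genes named for it were chosen after the values were seen, and these shares are a description.

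Sensory ganglion genes that the motor neuron list does not hold were mixed. Of these 11 genes above the filter, 2 had the same order as Sncg in mutant pools and 5 had replicate 1 lowest. The 2 were Runx1, a transcription factor of sensory neurons and of some motor neurons, at 132, 103, 111 and 97.4 in replicates 1 to 4, and Calca, the precursor of the neuropeptide CGRP, at 29.4, 25.1, 26.0 and 14.3. Of the 5, 3 also had replicate 4 highest, which is the reverse of Sncg at both ends. These were P2rx3, an ATP-gated channel of sensory neurons, at 53.0, 76.4, 59.9 and 98.3, Eya1, a transcription cofactor of sensory neurogenesis, at 50.6, 63.4, 56.3 and 73.1, and Scn10a, a sodium channel of pain-sensing neurons, at 14.2, 22.6, 25.4 and 28.0. The other two were Pou4f1, a transcription factor of sensory ganglia, at 137, 204, 193 and 140, and Ntrk3, a neurotrophin receptor, at 107, 144, 126 and 143. Runx3, Avil and Tlx3, of sensory ganglia and dorsal cord, and Sox10, of neural crest and Schwann cells, were below the filter. The summed neural crest and Schwann cell list (12 genes, 8 above the filter) was 1588 in mutant replicate 1, its lowest mutant value, with mutant pools up to 2247, wild-type pools from 1556 to 2349 and the negative control at 1885.

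**Figure D4:**
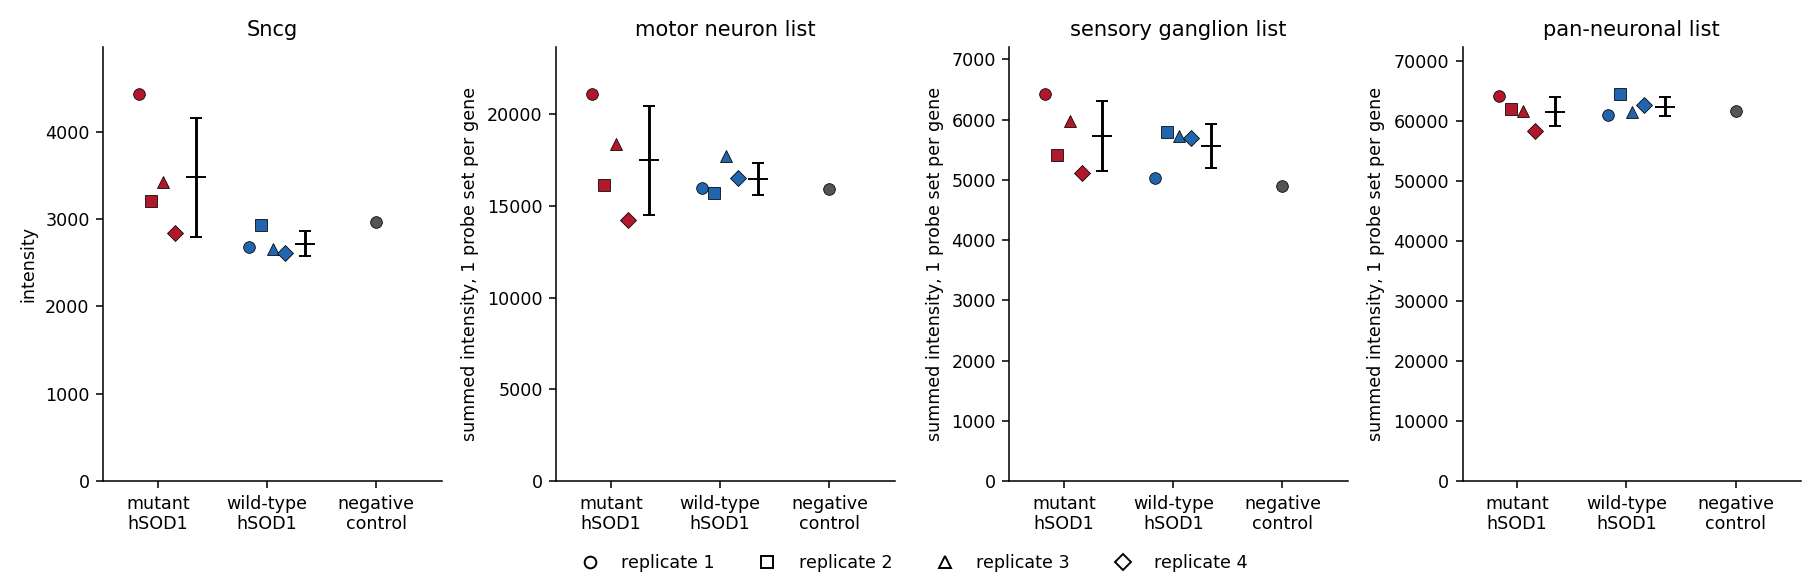
Intensity of Sncg and summed intensity of the motor neuron, sensory ganglion and pan-neuronal lists (vertical axes, linear, 1 probe set per gene) in each pool, by group, with a marker shape for the replicate number and the mean and SD beside the points. Mutant replicate 1 is highest and mutant replicate 4 lowest of the mutant pools in all 4 panels, and the motor neuron sum runs from 14254 to 21114 among mutant pools.

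The gene lists were chosen with earlier results of these data known. Of their genes, only Sst, the neuropeptide somatostatin in the ventral interneuron list, passed between mutant and wild-type pools. It was lower in mutant than in wild-type pools, at 183 ± 32.7 against 360.3 ± 45.4 (log2 difference −0.95, limma adjusted p = 0.0371), with the negative control at 158, below the mean of both groups. The call was lost under 13 of 19 alternatives, among them leaving out mutant replicate 1, 3 or 4 or wild-type replicate 1, 3 or 4 and the replicate block (limma adjusted p = 0.0860), with adjusted p from 0.0104 to 0.648; the log2 difference stayed between −1.09 and −0.87. Over all 18625 probe sets limma called 3 (0.0161%), of which 0 were higher (0%) and 3 lower (0.0161%) in mutant pools, with 923 at an unadjusted p under 0.05 (4.96%). The median log2 difference over all of them was 0.01.

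Of the 24 measured genes for the turnover and partners of synucleins, 0 passed in either direction, with a median difference of 0.02. Ctsl, a lysosomal protease, was 458 ± 21.6 in the mutant group and 398 ± 21.9 in the wild-type group (limma adjusted p = 0.928). Ywhaz, a 14-3-3 adaptor protein, was 4192 ± 171 against 3760 ± 410, and Nedd4, a ubiquitin ligase, 2427 ± 263 against 2671 ± 370 (limma adjusted p = 0.928 for both). Sncaip, which codes for a synuclein-binding protein, was 153 ± 29.2 against 151 ± 23.7. Uchl1, a neuronal deubiquitinase, was 2052 ± 119 against 1986 ± 94.4, and Park7, a redox-sensitive chaperone, 1925 ± 145 against 1992 ± 189; these last 3 were named for their known ties to synucleins after their values were seen.

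Of the 24 presynaptic genes above the filter, 0 passed, with a median difference of −0.01. Sv2b, a glycoprotein of synaptic vesicles, was 497 ± 31.9 in the mutant group against 690.0 ± 103, with the negative control at 472 (limma adjusted p = 0.668). Rab3a, a small GTPase of vesicle release, was 773 ± 158 against 943 ± 127, and Synpr, the vesicle protein synaptoporin, 154 ± 55.9 against 113 ± 7.51 (limma adjusted p = 0.928 for both). Pan-neuronal genes passed at 0 of 26, with a median of −0.07. Basp1, of growth cones, was 1480 ± 186 against 1787 ± 378, Elavl3, a neuronal RNA-binding protein, 854 ± 147 against 1050 ± 247, and Scg2, a secretogranin of dense-core vesicles, 458 ± 60.3 against 517 ± 64.3.

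Motor neuron genes passed at 0 of 19, with a median of 0.04. Isl1, a transcription factor of motor and sensory neurons, was 468 ± 104 in the mutant group against 337 ± 36.9, Aldh1a2 1695 ± 644 against 1104 ± 234 and Etv1, a transcription factor of neuron subsets, 513 ± 52.8 against 619 ± 84.3 (limma adjusted p = 0.928 for each). Sensory ganglion genes passed at 0 of 14, with a median of 0.03. Runx1 was 111 ± 15.1 against 70.7 ± 24.2 and 55.95 in the negative control, and Neurod1, a neurogenic factor, 292 ± 31.5 against 367 ± 61.6 (limma adjusted p = 0.928 for both). Of the 8 ventral interneuron genes above the filter, 7 were lower in mutant pools, and 1 of these, Sst, passed. The median of that list was −0.16, against 0.01 over all probe sets above the filter. Among the other lists, 0 of 8 neural crest, 0 of 11 progenitor, 0 of 2 floor plate, 0 of 3 dorsal cord, 0 of 3 vascular, 0 of 3 meningeal and 0 of 4 muscle genes passed. Phox2a, of noradrenergic and dorsal neurons, was 56.2 ± 18.4 against 37.2 ± 7.12, Slc1a3, a glutamate transporter of progenitors and astrocytes, 83.4 ± 5.21 against 111 ± 10.2, and Gata3, of a class of ventral interneurons, 135 ± 29.1 against 183 ± 37.9. Against the negative control 0 members of the lists passed.

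The genes most like Sncg over the 9 arrays were named by Pearson's r of log2 values among 13295 named probe sets above the filter. They were Creb5 (r = 0.93), Synpr (0.90), Nfia (0.90), Hmox2 (0.90) and Clta (0.90). Creb5, a transcription factor that binds cAMP response elements, was 71.5 ± 24.8 in the mutant group against 46.7 ± 7.42, with the control at 69.6. Nfia, a transcription factor of the spinal cord, was 44.8 ± 10.8 against 35.9 ± 3.91, Hmox2, a haem oxygenase, 130.0 ± 7.45 against 115 ± 2.46, and Clta, a clathrin light chain, 2684 ± 201 against 2507 ± 82.1. The departures from the group means over the 8 transgenic arrays correlated with those of Sncg at 0.95 for Creb5 and between 0.86 and 0.90 for the other four. The genes most like Sncb were Ankrd53 (0.93), Eml4 (0.91), Asb1 (0.91), Zdhhc7 (0.90) and Synj2bp (0.90).

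These likenesses are not unusual for 9 arrays. The best partner of a named probe set had a median r of 0.96, with quartiles of 0.94 and 0.97, and 83.9% of them had a better best partner than Sncg and 84.5% than Sncb. By Spearman's rank correlation, 1 of the 5 genes was again among the first 5 for Sncg and 0 of 5 for Sncb. Sncg and Sncb had an r of 0.47 with each other over the 9 arrays, and 0.72 for departures from the group means over 8 arrays. Arrays share their group and their RNA quality, so these are descriptions.

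The genes that lie beside the synucleins on the chromosome, 2 protein-coding genes on each side in RefSeq's GRCr8 table, gave no common direction. Beside Sncg, on chromosome 16, Bmpr1a, a receptor for bone morphogenetic proteins, was 69.6 ± 8.22 in the mutant group against 48.4 ± 12.0, which differ by 0.48 on the log2 scale. Glud1, glutamate dehydrogenase, differed by 0.0043 and 0.13 on its 2 probe sets. Mmrn2, of blood vessels, and Fam25a were below the filter, with Mmrn2 at 3.05 ± 1.67 against 3.48 ± 4.76. Beside Sncb, on chromosome 17, Gprin1, a growth cone protein, differed by −0.16, Tspan17 by 0.19 and −0.0041 on its 2 probe sets and Cdhr2 by 0.04. Eif4e1b, whose extent overlaps that of Sncb, was not analysed here. These neighbours were looked at after the synuclein values were seen and carry no test.

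**Figure D5:**
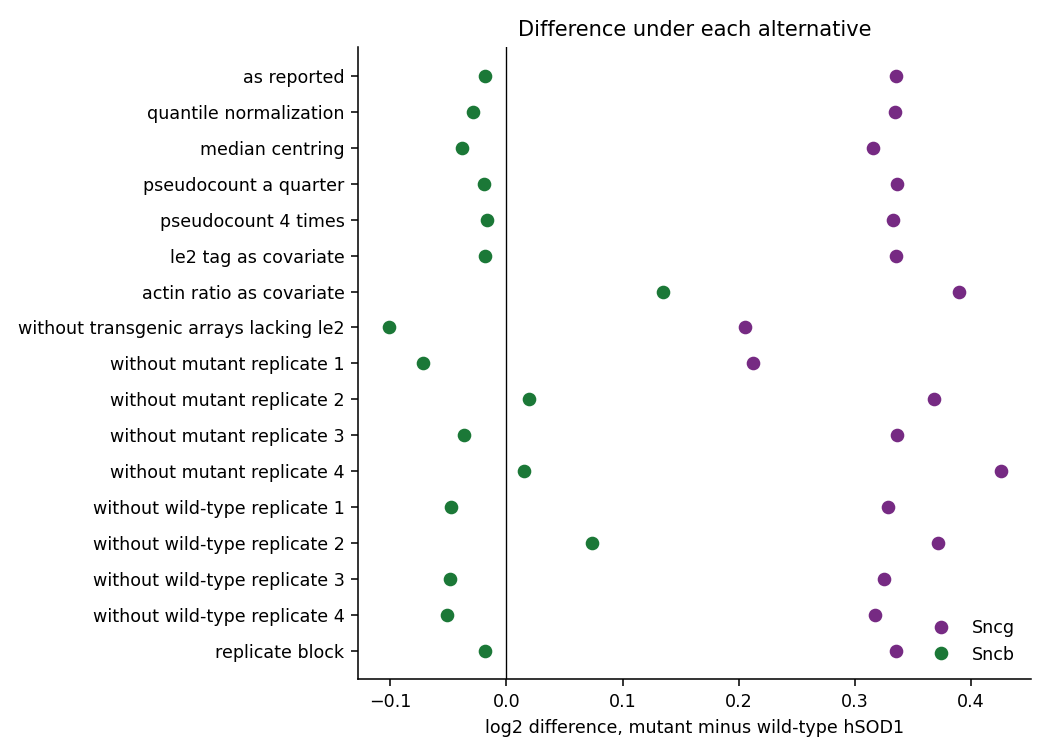
Mutant minus wild-type log2 difference (horizontal axis) for Sncg and Sncb as reported and under each alternative processing or left-out pool (vertical axis). Sncg stays between 0.21 and 0.43, lowest without the pools that lack the le2 tag or without mutant replicate 1, and Sncb lies between −0.10 and 0.13, on both sides of 0.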

How the data were processed

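Values used here are the linear intensities of the deposited table, 1 for each probe set on each of the 9 arrays; which software the authors ran is not stated in these sources. From the values, the arrays had been scaled: after trimming the lowest and highest values, the mean was 150.05 in each, and no further normalization was added. Of 31099 probe sets, 57 Affymetrix controls were left out of the tests. Gene names came from GEO's platform annotation, with 20826 probe sets of 1 symbol, 436 of several and 9780 of none.

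A pseudocount of 8.25, the 25th percentile over the table, was added before taking log2. The filter kept probe sets with a mean log2 value above the 40th percentile, and these 18625 were tested with limma 3.58.1 in R 4.3.3 (lmFit, eBayes with trend, Benjamini-Hochberg adjustment, threshold 0.05). The estimates of this procedure were tried on simulated data with changes larger than the synuclein differences, so calls at small differences were not checked. Mutant and wild-type pools were fitted on 8 arrays and the negative control with all 9. For the synucleins themselves neither fit is used as a test. The replicate is the pool; the number of arrays limits the precision.

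The members, the 14 gene lists (262 entries, 1 probe set per gene, the brightest) and the tests were chosen with earlier results of these data known. Named were all synuclein probe sets, the 5 most like the brighter probe set of each gene, up to 3 members per list with the smallest p, and list genes past the threshold. For the short lists outside neurons, only some of these are named. As alternatives, the fits were repeated with median centring, quantile normalization, a pseudocount of 2.06 or 33.0, other filters, eBayes without trend, the le2 tag or the log2 actin ratio as a covariate, a replicate block, and left-out arrays.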

Additional observations from a re-analysis of the deposited data

Results flagged for a closer look

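Wild-type replicate 2 lay far from the other wild-type pools for Sncb on 1371568_at, at 195 against 148 to 149; the gap to the nearest pool was 0.977 of the group's range, above Dixon's 95% critical value for 4 samples. The same pool was the lowest of the wild-type pools in log2 Sncg minus log2 Sncb, at 3.86, with a gap of 0.895 of the range. It is the pool with the beta-actin 3'/5' ratio of 19.2, whose part in these values was not tested. Both flags rest on the same Sncb value. Of 8 groups checked, chance flags about 1 in 20. Sncg itself was not flagged: the gap of mutant replicate 1 was 0.633 of the range and that of wild-type replicate 2 was 0.795.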

How the results depend on the processing

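The higher mean of Sncg in mutant pools kept its direction under all 16 alternatives (0.21 to 0.43), and so did Sncg relative to Sncb under all 14 (0.25 to 0.41). The le2 covariate and the replicate block are balanced between these groups and could not move either difference. When 1 pool was left out, the differences ranged from 0.21 to 0.43 and from 0.28 to 0.41. Sncb, at −0.02, turned to 0.13 with the actin ratio as a covariate, and ranged from −0.072 to 0.074 when 1 pool was left out, positive without replicate 2 (0.019) or 4 (0.015) of the mutant pools or replicate 2 of the wild-type pools (0.074). Against the negative control, Sncg at 0.04 was 0.21 with the le2 tag as a covariate, turned to −0.00021 with the actin ratio as a covariate and −0.018 without the pools lacking le2, and ranged from −0.021 to 0.085 over left-out pools, negative without mutant replicate 1 (−0.021). Sncb at 0.01 was 0.045 with the le2 tag as a covariate, turned to −0.11 with the covariate and −0.0041 without the pools lacking le2, and ranged from −0.038 to 0.027 over left-out pools, negative without replicate 1 (−0.019) or 3 (−0.00086) of the mutant pools or replicate 2 of the wild-type pools (−0.038). The causes of the moves and turned signs were not tested. The count between mutant and wild-type pools, 3, became 5 with median centring, 1 without a filter or with the le2 covariate, and 0 in limma without trend, with the actin covariate or without the pools lacking le2, with 996, 681 and 682 at an unadjusted p under 0.05. It ranged from 1 to 3 over left-out pools, at 1 without replicate 1 of either group or replicate 3 of the wild-type pools. The count against the negative control, 0, became 1 with median centring, with a pseudocount of 2.06 and without the pools lacking le2, and ranged from 0 to 1 over left-out pools, at 1 without wild-type replicate 1. The single negative control could not be left out.

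The replicate numbers are not said to pair pools, and same-numbered pools correlated at 0.12, 0.09, −0.08 and 0.20 in their departures from the group means, so they were not treated as pairs. With a replicate block 3 probe sets passed. The differences remained 0.34 for Sncg, −0.02 for Sncb and 0.35 for Sncg relative to Sncb. They could not change, since each replicate number occurs once in the mutant and once in the wild-type group. With all probe sets of each gene in place of 1, list calls stayed at 1. The alternatives for Sst were added after seeing the data.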
